A study of Mus musculus with 3 samples.

Results

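Dividing fibroblasts of the day 2 wound are described here, as 2042 cell barcodes of 1 single-cell library. A barcode stands for 1 captured cell, and the values are counts of UMIs, the unique molecular identifiers that tag each captured RNA molecule. The members were chosen from the counts themselves, among day 2 barcodes in which 200 or more genes were found and mitochondrial genes took no more than 10% of UMIs. They held at least 1 UMI of Pdgfra, the fibroblast receptor for platelet-derived growth factor, and at most 1 UMI of Ptprc, the leukocyte surface gene. They also held at least 5 UMIs in all of Top2a, Mki67, Ube2c and Birc5, genes of dividing cells. They are set against 917 day 2 barcodes with the same limits and a sum of 0, called non-dividing here. A further 1028 barcodes with a sum of 1 to 4 lay between. The day 2 library held 8707 deposited barcodes, and the series 26881 in 3 libraries.

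The libraries were 1 each of wound bed at day 2, wound bed at day 7 and non-lesional skin, all from the back of male C57BL/6 mice aged 7 to 9 weeks. Wounds went through the full thickness of the skin and measured 1.0 cm by 0.5 cm. Tissue was dissociated with collagenase D and DNase1, and RNA was captured from its 3' end in droplets. No genotype other than the strain and no treatment other than the wound is given, and the sources used here do not give how many mice stand behind each library. Day and library cannot be told apart, and cells of 1 library are not replicates. No test was made, therefore, and all intervals are exact 95% intervals that cover counting error only.

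A dividing cell copies its DNA once in S phase and shares it out in mitosis. Licensing factors and the MCM helicase prepare the origins in G1, replication proteins and new histones are made in S phase, and cyclins, kinases, kinetochore and spindle proteins are made towards mitosis. Many S phase genes are controlled by E2F factors, and many mitotic genes by the DREAM complex and by MYBL2 with FOXM1. In skin wounds, fibroblasts from the surrounding dermis divide, move into the bed, lay down matrix and in part become contractile myofibroblasts.

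Dividing barcodes made up about as many of the day 2 fibroblasts as non-dividing ones or more, depending on the rule. Of 3987 barcodes that passed the Pdgfra and Ptprc limits, 51.2% were dividing (interval 49.7 to 52.8), 25.8% lay between and 23.0% were non-dividing. At day 7 the same rule gave 536 of 2430 barcodes, 22.1% (20.4 to 23.8), and in non-lesional skin 30 of 5087, 0.590% (0.398 to 0.841). Dividing barcodes were deeper, with medians of 35777.5 UMIs and 5699 genes against 19639 UMIs and 4115 genes in non-dividing ones at day 2. A sum of raw UMIs is easier to reach in a deep barcode, and so each barcode was also thinned to 5000 UMIs and called dividing from a sum of 2. By that rule the dividing share was 42.6% at day 2, 19.6% at day 7 and 0.615% in non-lesional skin, and the non-dividing share of day 2 was 41.8%. The order of the 3 libraries was the same by both rules. Of the 30 non-lesional barcodes 14 carried a doublet mark, and their 8 keratinocyte markers summed to 14258 CPM, so they were not compared further.

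Fibroblast markers were high in both groups. The members summed to 30119 CPM over 10 fibroblast markers, Pdgfra among them, against 39459 CPM in non-dividing barcodes, where CPM is a gene's UMIs summed over a group, per 1000000 UMIs of that group. Dcn, a small proteoglycan of fibroblasts, was found in every member and was at 0 in 25 non-dividing barcodes. Cdk1 (ENSMUSG00000019942, chromosome 10, 69335146 to 69352938 on GRCm38), the kinase that starts mitosis, was at 135 CPM against 8.31 CPM, which describes the split by division genes. Markers of most other cells were low in both groups: 10 macrophage markers summed to 41.7 CPM against 54.5 CPM and 8 keratinocyte markers to 10.9 CPM against 11.1 CPM. The 5 adipocyte markers summed to 0.106 CPM against 0.0536 CPM. Neutrophil markers summed to 186 CPM against 333 CPM, led by S100a9 at 95.4 CPM against 165 CPM. Erythroid markers, mostly haemoglobin genes, summed to 684 CPM against 751 CPM at day 2, and to 410 CPM in dividing against 1454 CPM in non-dividing barcodes of day 7. Doublet scoring marked 9.84% of dividing and 5.78% of non-dividing barcodes, and 7.39% against 6.32% held a Ptprc UMI. With doublet marks removed 343 genes stood at least 2-fold higher in dividing barcodes of day 2 and 45 lower. With no Ptprc UMI allowed they were 331 and 37, against 325 and 37 by the main rule. The dividing share of day 2 was 50.9% and 50.8% under these limits, against 51.2%. The part of other cells in the results was not tested further.

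The rule has no gap at its threshold. Cdk1 stood at 29.2 and 28.7 CPM in the 190 and 132 barcodes with a sum of 3 and 4, just outside, and at 36.8 and 47.1 CPM in the 125 and 108 barcodes with a sum of 5 and 6, just inside. The members' own sums ran between 5 and 307 with a median of 21. Among members, Top2a, which untangles DNA, was at 245 CPM, the ubiquitin enzyme Ube2c at 242, the chromosomal passenger Birc5 at 198 and the proliferation antigen Mki67 at 160. All 4 are at 0 in the non-dividing barcodes by choice.

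Dividing and non-dividing barcodes of day 2 differed mainly in cell cycle genes. Over both groups 14902 genes had at least 10 UMIs. Of these, 325 stood 2-fold or more higher in dividing barcodes (2.18%) and 37 lower by as much (0.248%), and the median log2 fold was 0.00. Log2 folds carry a pseudocount of 5 CPM, which draws low genes towards 0, and ratios carry none. The groups were split by 4 genes of division, so the cell cycle genes that follow describe that split and support nothing.

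**Figure D1:**
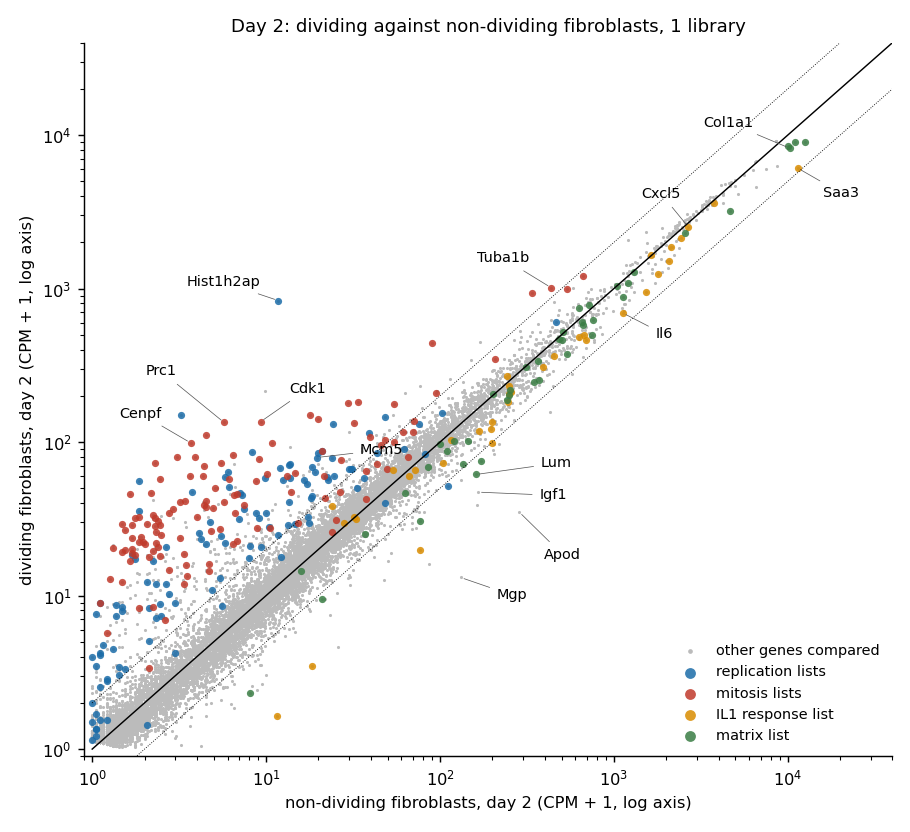
Level of every gene compared in dividing (vertical) and non-dividing (horizontal) fibroblast barcodes of day 2, in CPM plus 1 on log axes, with the line of equal levels and dotted lines at 2-fold. Genes of the replication and mitosis lists lie mostly above the line, such as Cdk1 at 135 against 8.31 CPM. Of the histone genes, 3 lie below it. IL1 response and matrix genes lie mostly near or below the line, such as Cxcl5 at 2529 against 2672 CPM.

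Origin licensing genes were higher in dividing barcodes, in 17 of 20 members by 2-fold, with a median log2 fold of 1.41. Mcm5 (ENSMUSG00000005410, chromosome 8, 75109569 to 75128439), a subunit of the replicative helicase, stood at 78.3 CPM in dividing barcodes and 18.6 CPM in non-dividing ones, a ratio of 4.22 (3.79 to 4.72). Its level per barcode, in UMIs per 10000, had a median of 0.647 and a 90th percentile of 1.74 among members, against 0 and 0.583. Gmnn, which blocks licensing once S phase has begun, was at 57.2 against 8.85 CPM, a ratio of 6.47 (5.54 to 7.60). The loader that it blocks, Cdt1, was at 42.1 against 17.2 CPM, and a further loader, Cdc6, at 20.9 against 4.83 CPM.

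Genes of DNA synthesis followed, with 22 of 30 at least 2-fold higher and a median of 1.31. The sliding clamp Pcna was at 113 against 38.2 CPM, a ratio of 2.97 (2.75 to 3.21). Clspn, a fork protein that relays checkpoint signals, had a ratio of 9.74 (7.94 to 12.1), and Lig1, which seals the lagging strand, one of 5.58 (4.90 to 6.39). Of 18 genes of nucleotide supply 7 were at least 2-fold higher. Among them were Rrm2, Tk1, Rrm1, Tyms, Dut and Dctpp1, which serve DNA precursors. Rrm2, the cycling subunit of ribonucleotide reductase, was at 85.1 against 7.29 CPM, while Ctps, which makes CTP, was at 82.9 against 81.5 CPM. Of 28 DNA repair genes 17 were at least 2-fold higher.

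A histone gene had the largest log2 fold of all genes compared at day 2. Hist1h2ap (ENSMUSG00000094777, chromosome 13, 21833026 to 21833507), an H2A gene of the large histone cluster, stood at 835 CPM in dividing and 10.7 CPM in non-dividing barcodes, a ratio of 77.9 (67.8 to 89.9) and a log2 fold of 5.74. It was uneven among members, with a 10th percentile of 0, a median of 2.83 and a 90th percentile of 23.8 UMIs per 10000. Hist1h2ae was at 150 against 2.25 CPM and the linker histone Hist1h1b at 54.7 against 0.86 CPM. Of 46 histone genes compared 19 were at least 2-fold higher, and Hist1h2bc was lower, at 50.5 against 111 CPM. Most replication histone messages lack a poly(A) tail, which the capture needs, and their genes are near-identical copies, so levels of single histone genes are uncertain.

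Mitotic genes had the largest medians of the 24 lists. Of 29 mitotic kinases, cyclins and their regulators 25 were at least 2-fold higher, with a median of 2.04. Cyclin A2 (Ccna2) was at 78.5 against 2.90 CPM, a ratio of 27.1 (20.8 to 36.1), Plk1 at 56.8 against 1.45 CPM and cyclin B1 (Ccnb1) at 59.0 against 3.33 CPM. The kinetochore list had 30 of 32 members at least 2-fold higher, led by Cenpf at 97.9 against 2.68 CPM and the motor Cenpe at 71.6 against 1.29 CPM. The spindle and cytokinesis list had 30 of 34. Its lead was Prc1 (ENSMUSG00000038943, chromosome 7, 80294450 to 80316259), which bundles microtubules between the separating chromosomes, at 134 against 4.72 CPM, a ratio of 28.3 (22.9 to 35.3). Kif11, the motor that pushes spindle poles apart, had only 12 UMIs in all non-dividing barcodes, and a ratio of 69.9 (39.9 to 135). Of 29 genes of chromosome structure 18 were at least 2-fold higher, including the condensin core Smc2 at 150 against 16.8 CPM. Hmgb2, in the same list at 443 against 89.0 CPM, stood at 865 CPM in day 2 neutrophil barcodes.

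Genes of exit from mitosis and of entry to the cycle were mostly within 2-fold. Of 17 genes of the anaphase-promoting complex (APC/C) and its regulators 4 were at least 2-fold higher, Cdc20, Fbxo5, Ube2s and Espl1. Cdc20, its mitotic activator, was at 71.4 against 5.52 CPM, while the core subunits such as Anapc1 lay within 2-fold. Of 25 genes of G1 entry 6 were higher, E2f7, E2f8, Ccne2, Rbl1, Cdk2 and E2f1. E2f1 lay at the threshold, with a log2 fold of 1.00, which was 0.99 with TMM scaling. With groups drawn from thinned barcodes 2 of the list were past 2-fold, and Rbl1, Ccne2 and E2f1 were not, at 0.86, 0.53 and 0.29. Cyclin D1 (Ccnd1), which couples growth signals to the cycle, was at 40.7 against 29.8 CPM, and cyclin D2 (Ccnd2) at 228 against 321 CPM. Myc, a growth regulator, was at 104 against 140 CPM.

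Inhibitors of the cycle were present in dividing barcodes too. Of 24 CDK inhibitors and p53 targets 3 were at least 2-fold higher, Cdkn3, Cdkn2c and Cdkn2d, and 0 lower. Cdkn1a, the p53-induced inhibitor p21, was at 184 CPM in dividing and 190 CPM in non-dividing barcodes, with a ratio of 0.968. Per barcode its median was 1.08 UMIs per 10000 in dividing and 0.754 in non-dividing barcodes, with 90th percentiles of 4.55 and 5.03. The Cdkn1a levels of the groups overlapped over nearly their whole range. Cdkn1c, which encodes p57, was at 9.64 against 16.6 CPM.

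**Figure D2:**
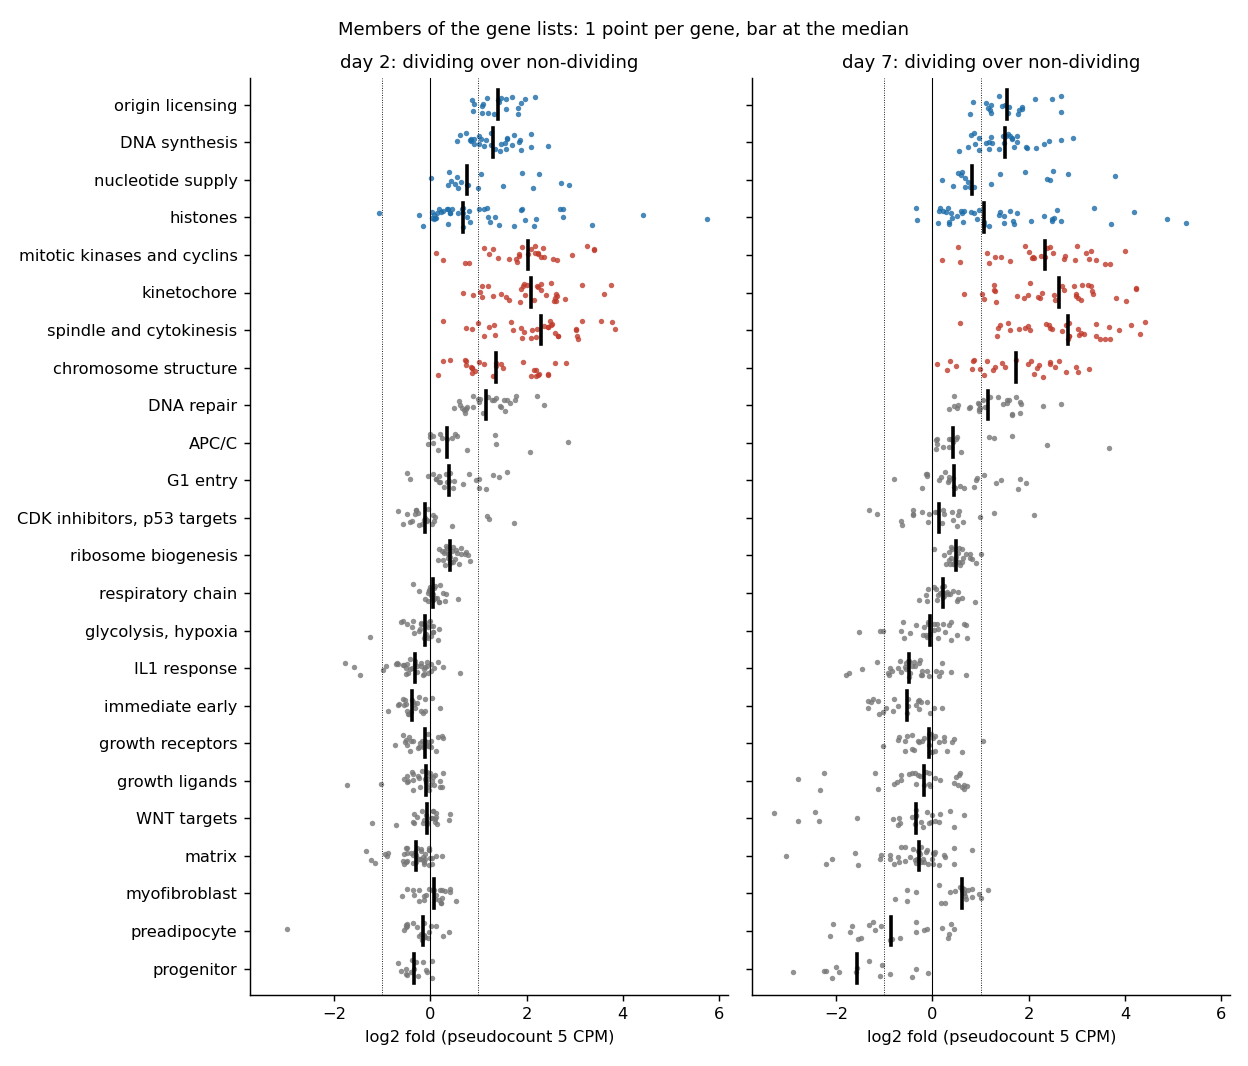
Log2 fold of dividing over non-dividing fibroblast barcodes for each member of the gene lists at day 2 (left) and day 7 (right), with 1 point per gene, a bar at the median and dotted lines at 2-fold. Replication lists are blue, mitosis lists red and others grey. The spindle list has medians of 2.29 at day 2 and 2.82 at day 7, and the progenitor list medians of -0.34 at day 2 and -1.56 at day 7.

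Promoters of the lists were searched for letters known from cell cycle control. Genes of the late cell cycle often carry a CHR element, written TTTGAA or TTCGAA, together with a CCAAT box, and replication genes often carry an E2F element, written TTTNGCGC or GGCGGGAA. These letters were searched on both strands in the 150 bases before the start of each gene, with no spacing set between them. Sequences and starts are those of RefSeq on GRCm38.p6. Of 27025 promoters 11.2% held CHR letters, 27.7% CCAAT, 2.85% both and 2.35% either E2F form. For the 11424 genes compared at day 2 that had a promoter the shares were 8%, 31.7%, 2.54% and 4.18%. In the spindle list 12 of 31 promoters held CHR letters (38.7%) and 8 held both (25.8%), and in the chromosome structure list 12 of 23 held CHR letters (52.2%) and 7 both (30.4%). The mitotic kinases and cyclins held both in 3 of 21, and the kinetochore list in 3 of 27. The letters were not limited to mitotic lists, as the histone list held both in 12 of 43 (27.9%) and the G1 entry list in 3 of 18 (16.7%). E2F letters stood in 4 of 15 licensing promoters (26.7%) and 5 of 25 of DNA synthesis (20%), but in 2 of 16 of nucleotide supply (12.5%). They were not limited to replication lists, with 4 of 18 in G1 entry (22.2%), 2 of 12 in the progenitor list (16.7%) and 3 of 25 in ribosome production (12%). The histone list held them in 8 of 43 (18.6%) and chromosome structure in 3 of 23 (13.0%). The IL1 response list held both CHR and CCAAT in 0 of 28 and E2F letters in 0 of 28. A match describes letters in this window and shows neither a bound site nor a cause.

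Promoters of 4 mitotic genes picked for holding CHR and CCAAT letters together are shown. They have the highest day 2 log2 folds among mitosis list genes with a sole listed promoter that holds both. Genes without both letters were passed over, so the 4 are examples and support nothing. Cdk1 (chr10:69352913-69353062, minus strand), Kif11 (chr19:37376232-37376381, plus strand), Ckap2l (chr2:129297213-129297362, minus strand), a spindle protein, and Kif22 (chr7:127042421-127042570, minus strand), a chromosome-arm motor, are printed 5' to 3' on the gene's strand, ending at the base before the start. Capitals mark CHR and CCAAT letters in either orientation, TTCAAA and ATTGG being the reverse forms. Their log2 folds at day 2 were 3.39, 3.15, 3.06 and 2.36.
Cdk1: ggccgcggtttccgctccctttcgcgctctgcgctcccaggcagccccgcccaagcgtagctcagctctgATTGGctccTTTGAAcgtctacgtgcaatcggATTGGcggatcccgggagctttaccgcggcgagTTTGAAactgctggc
Kif11: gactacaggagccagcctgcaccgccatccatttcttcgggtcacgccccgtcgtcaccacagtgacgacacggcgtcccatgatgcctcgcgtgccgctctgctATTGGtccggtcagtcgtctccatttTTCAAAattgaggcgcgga
Ckap2l: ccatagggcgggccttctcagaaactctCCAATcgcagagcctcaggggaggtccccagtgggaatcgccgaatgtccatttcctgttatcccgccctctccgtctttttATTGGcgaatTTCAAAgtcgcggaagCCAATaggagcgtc
Kif22: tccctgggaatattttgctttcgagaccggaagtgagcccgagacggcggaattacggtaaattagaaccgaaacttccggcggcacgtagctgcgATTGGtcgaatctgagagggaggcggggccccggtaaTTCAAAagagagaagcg
In Cdk1 both occur a second time, nearer the start, and an E2F form lies further upstream in lower case. Ckap2l holds CCAAT letters at 3 places. Kif11 and Kif22 hold 1 of each, with the CHR letters on the side of the start.

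Promoters of 3 replication genes picked for holding an E2F form are shown as further examples. They have the highest day 2 log2 folds among such genes of the licensing, DNA synthesis and nucleotide supply lists with a sole listed promoter. Rrm1 (chr7:102441545-102441694, plus strand), the large subunit of ribonucleotide reductase, Mcm5 (chr8:75109359-75109508, plus strand) and Prim1 (chr10:128015065-128015214, plus strand), which makes the primers of DNA synthesis, are printed in the same way, with capitals on E2F letters in either orientation. Their log2 folds at day 2 were 2.27, 1.82 and 1.59.
Rrm1: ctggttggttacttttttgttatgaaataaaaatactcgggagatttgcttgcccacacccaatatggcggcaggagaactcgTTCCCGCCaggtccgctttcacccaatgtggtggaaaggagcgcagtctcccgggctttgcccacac
Mcm5: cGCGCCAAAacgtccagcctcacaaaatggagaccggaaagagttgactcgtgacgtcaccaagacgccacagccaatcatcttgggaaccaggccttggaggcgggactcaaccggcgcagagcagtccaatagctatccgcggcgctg
Prim1: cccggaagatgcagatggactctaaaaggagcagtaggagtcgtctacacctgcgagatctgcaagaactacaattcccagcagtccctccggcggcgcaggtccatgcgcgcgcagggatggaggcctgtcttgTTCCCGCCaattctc
Rrm1 and Prim1 hold the GGCGGGAA form, reversed as TTCCCGCC, and Mcm5 the TTTNGCGC form, reversed. Rrm1 and Mcm5 also hold CCAAT letters in lower case, and in Prim1 the CCAAT letters overlap the E2F form.

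Members differed in their balance of replication and mitosis UMIs. After thinning to 5000 UMIs, 2035 members remained, with a median of 15 UMIs of the replication lists (10th to 90th percentile 4 to 35) and of 32 UMIs of the mitosis lists (17 to 52). The 804 non-dividing barcodes deep enough had medians of 4 and 9. A few genes made up much of both sums, with Hist1h2ap at 22.9% of the members' replication UMIs and the tubulins Tubb5 and Tuba1b at 17.98% and 15.1% of their mitosis UMIs. Across the 2035 members, which share 1 library and 1 depth, the rank correlation of the 2 sums was 0.0463. Members were put in 3 bins by the share of mitosis UMIs among both, with median shares of 48.7%, 65.5% and 85.4%. The bins are set by these genes and are a description. Members formed 1 spread, with no gap between bins.

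**Figure D3:**
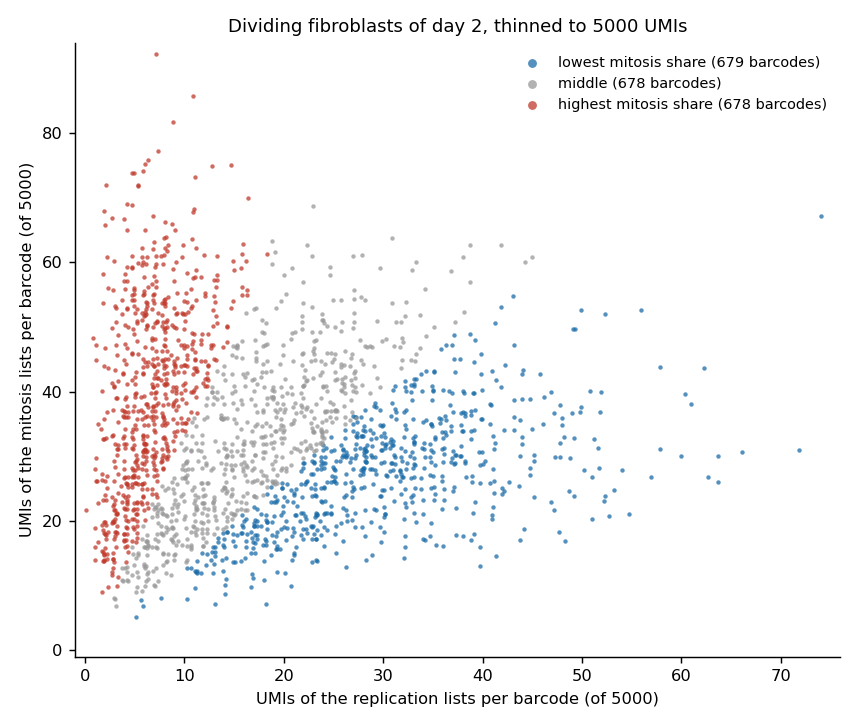
UMIs of the mitosis lists (vertical) against UMIs of the replication lists (horizontal) in each dividing fibroblast barcode of day 2 thinned to 5000 UMIs, with points moved slightly apart. Colours give the 3 bins of 679, 678 and 678 barcodes by mitosis share, which grade into each other.

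Replication genes ran down over the bins and mitotic genes ran up. Hist1h2ap was at 1579, 776 and 132 CPM in the low, middle and high mitosis bins. Mcm5 was at 115, 77.9 and 41.5 CPM and Cdc6 at 36.1, 22.1 and 4.09 CPM. Cyclin E2 (Ccne2), which acts at the start of S phase, was at 42.0, 23.9 and 4.45 CPM. Ccnb1 was at 27.2, 47.3 and 103 CPM and Cenpf at 47.2, 69.6 and 178 CPM. Median depth was 37222, 35253 and 34451.5 UMIs in the same order, so the bins differed little in depth.

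Genes outside the lists that set the bins differed between them too. The APC/C activator Cdc20 was at 135 CPM in the high mitosis bin against 29.3 CPM in the low one, and Arl6ip1, a membrane-shaping protein, at 186 against 62.7 CPM. Those lower in the high mitosis bin included Pbld2 at 12.5 against 90.4 CPM, E2f1 at 11.8 against 55.3 and Slbp, which binds histone messages, at 40.7 against 97.5. Over 13723 genes compared between these bins, 14 were at least 2-fold higher and 45 lower. Inflammatory and matrix lists differed less over the bins. The IL1 response list summed to 28169, 25698 and 25367 CPM over the bins, and the matrix list to 55005, 50532 and 52997 CPM.

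Single barcodes of like depth show the counts behind these levels. 1 member was taken per bin, chosen after the values were seen. The low mitosis one, with 35831 UMIs, held 43 UMIs of Hist1h2ap, 10 of Pcna and 6 of Mcm5, with 1 of Ccnb1. The middle one, with 35922 UMIs, held 0 of Hist1h2ap, 3 of Mcm5 and 5 of the rule's 4 genes, at the threshold. The high mitosis one, with 35917 UMIs, held 0 of Hist1h2ap and of Mcm5, with 7 of Cdc20 and 7 of Prc1. All 3 held fibroblast collagen, with 248, 448 and 360 UMIs of Col1a1, and Cxcl5 at 77, 58 and 3 UMIs.

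Inflammatory genes of the day 2 wound were mostly within 2-fold in dividing and non-dividing barcodes, and more of them lay below equal levels than above. Among 36 genes induced by IL1 and NF-kB, 3 were lower by 2-fold or more and 0 higher, and 30 had a log2 fold below 0, with a median of -0.32 against 0.00 over all genes. The list summed to 26424 CPM in dividing and 36086 CPM in non-dividing barcodes. The neutrophil-attracting chemokine Cxcl5 was at 2529 CPM in dividing and 2672 CPM in non-dividing barcodes, a ratio of 0.947. Per barcode its median was 19.7 UMIs per 10000 in dividing and 10.7 in non-dividing ones, with 90th percentiles of 54.7 and 62.5. Cxcl1 was at 3593 against 3750 CPM and the monocyte attractant Ccl2 at 1649 against 1644 CPM. Il6 was at 693 against 1124 CPM, 1.62-fold lower (1.60 to 1.65), and the granulocyte growth factor Csf3 at 134 against 197 CPM. The acute-phase gene Saa3 was at 6069 against 11477 CPM, 1.89-fold lower (1.88 to 1.90). Day 2 neutrophil barcodes held Cxcl5 at 754 CPM, Il6 at 279 and Saa3 at 2733, under the level of both fibroblast groups. The 3 lower ones in dividing barcodes were Saa1, Saa2 and Mmp13, and Saa1 and Saa2 are close copies that share reads.

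Receptors and alarmins of the IL1 family were likewise within 2-fold. Il1r1, the receptor for IL1, was at 148 against 179 CPM and Il1rl1, the receptor for IL33, at 268 against 241 CPM. Il33 itself was at 479 against 629 CPM. Within the day 2 fibroblasts Il33 stood at 629 CPM at a rule sum of 0, 642 at 1 to 4, 602 at 5 to 9, 511 at 10 to 19, 464 at 20 to 49 and 393 at 50 or more. Over the same steps the IL1 response list summed to 36086, 30990, 28018, 26755, 26533 and 25006 CPM. Single genes did not all fall steadily. Cxcl5 stood at 2672, 2904, 3178, 2589, 2421 and 2180 CPM and Saa3 at 11477, 6817, 4884, 6439, 6578 and 6007 CPM. Median depth was 19639 UMIs at a sum of 0 and 49765 UMIs at 50 or more. The neutrophil genes S100a8 and S100a9 were lower in dividing barcodes as well, at 60.1 and 95.4 CPM against 111 and 165 CPM.

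A small set of secreted genes was lower in dividing barcodes. Mgp (ENSMUSG00000030218, chromosome 6, 136872435 to 136875823), the matrix Gla protein that restrains calcification, was at 12.1 CPM in dividing and 130 CPM in non-dividing barcodes, 10.8-fold lower (9.96 to 11.6). Apod (ENSMUSG00000022548, chromosome 16, 31296192 to 31314808), a lipid carrier, was at 34.1 against 284 CPM, 8.33-fold lower (7.94 to 8.73), and Gas6, the ligand of the AXL and MER receptors, at 14.99 against 85.9 CPM. Both the growth factor Igf1, at 46.2 against 164 CPM, and the IGF-binding proteins Igfbp5, at 38.2 against 163 CPM, and Igfbp4, at 155 against 430 CPM, were among them. Matrix genes here were Lum at 60.5 against 160 CPM, Ogn at 74.3 against 170 CPM and elastin (Eln) at 29.4 against 75.4 CPM. They were 3 of 42 matrix genes, of which 0 were higher, and the list's median was -0.29. The WNT antagonist Sfrp4 and the growth factor Gdf10 had log2 folds of -1.22 and -1.03.

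Of these genes, Mgp and Apod were high in few barcodes. For Mgp and Apod the median barcode held none in either group, and their 90th percentiles were 0.121 and 0.876 UMIs per 10000 in dividing barcodes, against 1.25 and 3.00 in non-dividing ones. Apod stood at 284 CPM at a rule sum of 0, 41.7 at 1 to 4, 46.9 at 5 to 9, 39.3 at 10 to 19, 32.6 at 20 to 49 and 23.6 at 50 or more. Mgp stood at 130, 18.4, 15.1, 25.1, 9.22 and 4.24 CPM over the same steps. Most of the drop therefore lay between a sum of 0 and a sum of 1 to 4, below the dividing threshold. Against non-dividing barcodes of at least 10000 UMIs the log2 folds were -2.28 for Apod and -2.90 for Mgp, where all non-dividing barcodes gave -2.89 and -2.98. With groups drawn from thinned barcodes Mgp, Apod, Gas6, Igf1 and Igfbp5 stayed past 2-fold lower, at -1.85, -1.63, -1.43, -1.05 and -1.02, while Lum, Eln, Ogn, Igfbp4, Sfrp4 and Gdf10 did not, at -0.74, -0.64, -0.87, -0.83, -0.69 and -0.57.

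Lineage and growth genes were otherwise mostly within 2-fold at day 2. Interstitial progenitors are Pi16 and Dpp4 cells from which preadipocytes can arise. Of 15 of their genes 0 passed 2-fold in either direction, and the median was -0.34. Pi16 was at 195 against 314 CPM, 1.61-fold lower (1.56 to 1.66). It was also at 128 CPM in day 2 neutrophil barcodes, so its level in either group holds free RNA to an extent not worked out. Dpp4 was at 23.4 against 35.5 CPM. Of 24 myofibroblast genes 0 were past 2-fold either way, and Acta2, smooth muscle actin, was at 73.0 against 61.8 CPM. Of 22 preadipocyte genes 1, Mgp, was lower. Col1a1, the main collagen of skin, was at 8212 against 10272 CPM. Crabp1, a retinoic acid carrier, was higher, at 126 against 57.4 CPM, but its log2 fold of 1.07 was 0.45 as a mean over barcodes.

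Genes that supply growing cells lay within 2-fold, with the exception of Adm and the growth factors named above. All 29 genes of ribosome production lay above 0, with a median log2 fold of 0.41, and 0 of them were past 2-fold. Nucleolin (Ncl), which helps make ribosomal RNA, was at 1002 against 581 CPM, a ratio of 1.72 (1.69 to 1.76). Of 25 respiratory chain genes 0 were past 2-fold, and of 29 genes of glycolysis and hypoxia 1 was lower, the vessel-acting peptide Adm at 83.2 against 204 CPM. Of 30 growth factor receptors and their feedback genes 0 were past 2-fold, of 31 growth factors 2 were lower, Igf1 and Gdf10, and of 23 immediate early genes 0.

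Dividing fibroblasts of day 2 and of day 7 were then set side by side, as the same rule picked them in both libraries. Among 15357 genes compared, 282 stood 2-fold or more higher at day 2 (1.84%) and 450 lower (2.93%). With TMM scaling 368 were higher and 348 lower, and with median-of-ratios scaling 368 and 346, so which direction held more genes depended on the scaling. The median log2 fold of all genes was -0.05, and 0.00 with median-of-ratios scaling. Cell cycle genes were at near levels. Both groups had to reach the same sum of division genes, so near levels partly describe the rule and support nothing further. Across the licensing, DNA synthesis, nucleotide supply, mitotic kinase, kinetochore and DNA repair lists 0 genes were past 2-fold. Wee1 of the mitotic kinase list came nearest, with a log2 fold of -0.94, followed by Gart and Ctps of nucleotide supply, at 0.88 each. Cdk1 was at 135 CPM at day 2 and 158 CPM at day 7, Ccnb1 at 59.0 and 78.8 CPM and Mcm5 at 78.3 and 51.2 CPM. Hist1h2ap was 1.80-fold higher at day 2 (1.76 to 1.83), at 835 against 465 CPM. It ran against its list, in which 2 of 46 histone genes lay above 0 and 44 below, with a median of -0.31. Of the other cell cycle lists, 3 histone genes, 2 of chromosome structure, 1 of the spindle and Cdk6 of the G1 entry list were lower at day 2, and Myc was higher, at 104 against 43.7 CPM. With TMM or median-of-ratios scaling 0 of chromosome structure were past 2-fold. By CPM, 26 of 32 kinetochore, 29 of 34 spindle, 25 of 29 mitotic kinase and 25 of 29 chromosome structure genes lay below 0. Their medians were -0.32, -0.33, -0.17 and -0.30. Licensing (12 of 20), DNA synthesis (24 of 30) and nucleotide supply genes (15 of 18) lay mostly above 0, with medians of 0.27, 0.09 and 0.19.

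Inflammatory genes were among those highest at day 2 relative to day 7 in dividing cells. Among 36 IL1 response genes, 21 stood 2-fold or more above their day 7 level and 1 below it, and the median was 1.39. Il33 was at 479 CPM at day 2 against 21.5 CPM at day 7, a ratio of 22.2 (20.4 to 24.3). Il6 was at 693 against 47.5 CPM, Csf3 at 134 against 5.95 CPM and Saa3 at 6069 against 761 CPM. The B cell attractant Cxcl13 was at 139 CPM at day 2, with 7 UMIs at day 7 (0.281 CPM), and Cxcl14, a chemokine of resting skin, at 967 against 41.0 CPM. The lubricant Prg4, with the largest log2 fold of 5.45, was at 1346 against 25.9 CPM. Serpinb2, an inhibitor of plasminogen activators, was at 1254 CPM at day 2 against 43.7 CPM at day 7. The exception was the collagenase Mmp13, at 2.46 against 97.0 CPM. Non-dividing barcodes differed in the same direction, with the IL1 response list at 36086 CPM at day 2 and 12087 CPM at day 7. Il33 was at 629 and 53.6 CPM there, Saa3 at 11477 and 997 CPM and Cxcl14 at 1176 and 40.3 CPM. For these the difference between the days was not limited to dividing cells.

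**Figure D4:**
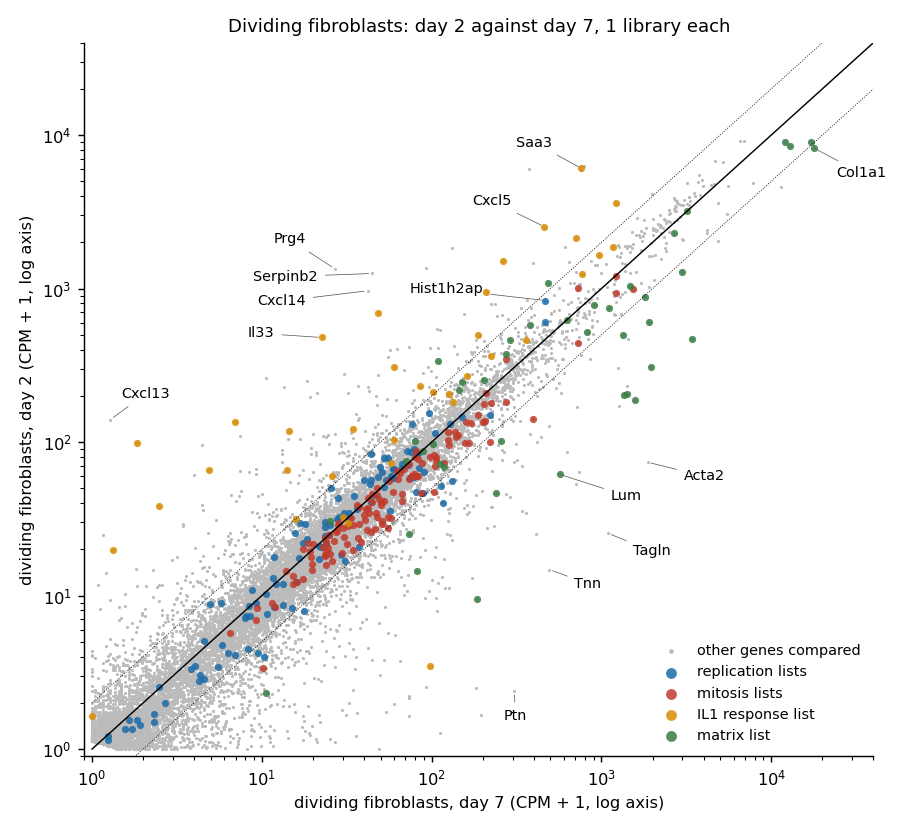
Level of every gene compared in dividing fibroblast barcodes of day 2 (vertical) and day 7 (horizontal), in CPM plus 1 on log axes, with the line of equal levels and dotted lines at 2-fold. Genes of the replication and mitosis lists lie mostly within 2-fold of the line of equal levels, in groups picked by the same division genes. IL1 response genes lie mostly above that line, such as Il33 at 479 against 21.5 CPM. Contractile genes lie below it, such as Acta2 at 73.0 against 1868 CPM.

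Contractile and matrix genes stood the other way. Acta2 was at 73.0 CPM in dividing cells of day 2 and 1868 CPM in those of day 7, 25.6-fold lower (24.9 to 26.3). Per barcode the median was 0 at day 2 and 14.1 UMIs per 10000 at day 7, with 90th percentiles of 1.98 and 37.7. Tagln, which binds actin, was at 24.5 against 1091 CPM and the myosin light chain Myl9 at 24.1 against 412 CPM. Pericyte and smooth muscle markers summed to 16.4 CPM at day 2 against 131 CPM at day 7, led by Rgs5 at 1.14 against 72.3 CPM, and the part of such cells was not tested. Of 42 matrix genes 17 were lower at day 2 and 2 higher. In non-dividing barcodes the matrix list summed to 65445 CPM at day 2 and 140862 CPM at day 7. Postn, of young matrix, was at 469 against 3421 CPM, Col12a1 at 205 against 1413 CPM and Tnn, a tenascin, at 13.8 against 491 CPM. Lox and Plod2, which cross-link collagen, were the 2 higher, at 1085 and 337 CPM against 481 and 108 CPM. The heparin-binding growth factor Ptn was at 1.38 against 306 CPM.

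Cycle inhibitors also differed between the days in dividing cells. Among 24 CDK inhibitors and p53 targets, 6 were lower at day 2 by 2-fold or more, and 0 were higher. Cdkn1c was at 9.64 CPM at day 2 against 95.8 CPM at day 7, 9.94-fold lower (9.14 to 10.8). Non-dividing barcodes held more Cdkn1c on both days, with log2 folds of dividing over non-dividing of -0.56 at day 2 and -1.33 at day 7. Its difference between the days was therefore not limited to dividing cells. Cdkn2b, which encodes p15, was at 3.04 against 29.9 CPM, and the Cdkn2a locus, which encodes p16 and p19ARF, at 0.980 against 11.3 CPM. Cdkn1a was at 184 against 97.1 CPM, within 2-fold. Of 29 glycolysis and hypoxia genes 10 were higher at day 2 and 0 lower, among them the lactate exporter Slc16a3 at 198 against 46.2 CPM. In non-dividing barcodes this list summed to 8913 CPM at day 2 and 4012 CPM at day 7, against 8670 and 4716 CPM in dividing ones.

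At day 7 the cell cycle genes again marked dividing against non-dividing barcodes, but other genes differed more. Among 15016 genes compared there, 397 stood 2-fold or more higher (2.64%) and 319 lower (2.12%). Of the 14205 genes compared on both days, 321 were higher at day 2 and 392 at day 7. The 295 higher on both days were 91.9% of the first list and 75.3% of the second. The 25 lower on both days were 69.4% of 36 at day 2 and 8.50% of 294 at day 7, and 0 genes were past 2-fold in opposite directions. The same 4 genes split the barcodes on both days, so this overlap is a description.

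Progenitor genes were far lower in dividing barcodes at day 7. Of the 15, 11 were lower by 2-fold or more and 0 higher. The median was -1.56, where day 2 had 0 lower and a median of -0.34. Pi16 was at 18.3 CPM in dividing and 169 CPM in non-dividing barcodes of day 7, 9.23-fold lower (8.38 to 10.2), against 1.61-fold lower at day 2. Dpp4 was 7.35-fold lower (6.13 to 8.87) at day 7, and 1.52-fold lower (1.38 to 1.66) at day 2. The WNT antagonist Wif1 was at 8.84 CPM in dividing and 130 CPM in non-dividing barcodes of day 7, a log2 fold of -3.29. At day 2 Wif1 was at 0.0397 against 3.22 CPM, a log2 fold of -0.71. Both day 2 levels lie under the pseudocount of 5 CPM, so the Wif1 log2 folds of the days cannot be compared. Acta2 was 2.01-fold higher (1.98 to 2.04) in dividing barcodes of day 7, at 1868 against 930 CPM, but its log2 fold was 1.00, and 0.98 with TMM scaling. With 1 library a day the difference between the days was not tested.

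Shares of dividing barcodes restate the same UMIs barcode by barcode, and support nothing further. Fibroblast barcodes were thinned to 5000 UMIs, sorted by whether they held a UMI of a gene chosen after its values were seen, and counted as dividing from a rule sum of 2. At day 2, 41.0% of the 1537 barcodes with Pi16 were dividing (38.5 to 43.5), against 43.7% of the 2273 without it (41.6 to 45.8). At day 7 it was 6.70% of 358 with Pi16 (4.34 to 9.81), against 22.0% of 1864 without it (20.2 to 24). Barcodes with Acta2 were dividing in 46.2% at day 2 and 25.8% at day 7, against 41.9% and 8.86% of those without it. The intervals cover counting error within 1 library a day, and no difference between the shares was tested. Barcodes with Igf1 were dividing in 33.5% at day 2 and 13.0% at day 7, against 45.2% and 25.6% of those without it. Free RNA can place a UMI in any barcode: in day 2 neutrophil barcodes, with a median of 1086 UMIs against 28997 in fibroblast barcodes, 11.5% held a Pi16 UMI, 5.77% one of Acta2 and 1.12% one of Igf1, without thinning. At day 7 the shares in neutrophil barcodes, with a median of 1391 UMIs against 27295 in fibroblast barcodes, were 14.9%, 21.8% and 4.60%.

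**Figure D5:**
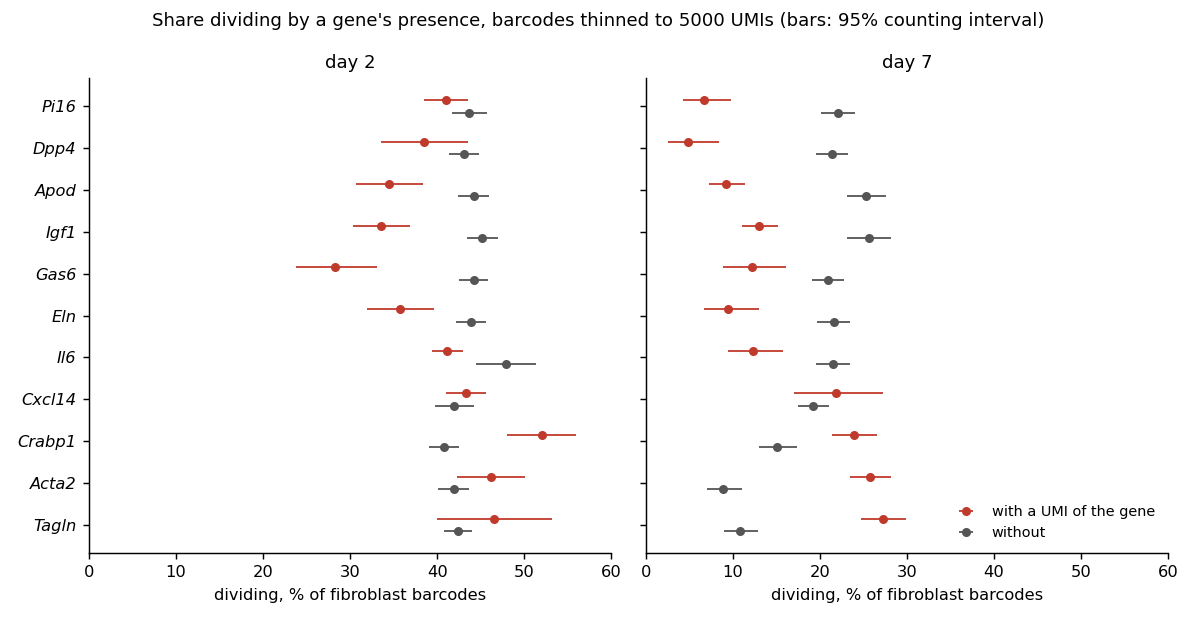
Share of fibroblast barcodes that were dividing, in percent with exact 95% counting intervals, among barcodes with (red) and without (grey) a UMI of each gene, after thinning to 5000 UMIs, at day 2 (left) and day 7 (right). For Pi16 the shares are 41.0% and 43.7% at day 2 and 6.70% and 22.0% at day 7.

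Limits apply to all of these values. The libraries share few barcode sequences, 14 between days 2 and 7 and 23 between day 2 and non-lesional skin, of which 2 and 8 belonged to dividing fibroblasts of day 2. The split by raw UMIs puts shallow barcodes in the non-dividing group. Against non-dividing barcodes of at least 10000 UMIs, 336 genes stood 2-fold or more higher in dividing barcodes of day 2 and 29 lower. With groups drawn from thinned barcodes, an alternative chosen after the data were seen, the non-dividing group held 1593 barcodes in place of 917. It then took in barcodes with a raw sum above 0. By that rule 202 genes stood 2-fold or more higher in dividing barcodes of day 2 and 9 lower. Licensing then had 4 members past 2-fold in place of 17 and DNA synthesis 8 in place of 22, DNA repair 8 in place of 17 and G1 entry 2 in place of 6, with log2 folds of 0.72 for Mcm5 and 0.68 for Pcna, while the counts of the mitosis lists were within 1.5 times. Lower members were 1 of the IL1 response in place of 3, and 0 of the matrix list in place of 3.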

How the data were processed

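The authors deposited raw UMI counts per gene and barcode for barcodes called as cells, made with Cell Ranger 5.0.0 per the file headers and 3.0.2 with Seurat 3.0 on mm10 per the submitters' processing notes. This difference was not resolved, and how cells were called is not stated in the sources used here. The groups held 75537766 UMIs in dividing and 18646543 in non-dividing fibroblasts of day 2. UMIs were summed per group and scaled to CPM, and ratios carry exact conditional binomial 95% intervals and shares Clopper-Pearson intervals. Doublets were scored with Scrublet in scanpy 1.11.5, whose own threshold marked 1 barcode at day 2. They were kept, and removing the top 0.8% per 1000 barcodes was an alternative. Positions came from GENCODE M21. Tools were pandas 2.3.3, numpy 2.4.6, scipy 1.17.1, matplotlib 3.10.9 and anndata 0.12.19 under Python 3.11.15, and edgeR 4.0.16 under R 4.3.3 for TMM factors. The fold procedure was checked on simulated data.

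Genes were named by rule: the 15 highest and 15 lowest at day 2 and the 10 highest and 10 lowest of day 2 over day 7, with at least 50 CPM, a UMI in at least 10% of barcodes and a 2-fold difference, and the 3 leading members of each list with at least 20 CPM. Mitochondrial, ribosomal protein, haemoglobin and unnamed predicted genes were left out of the ranking. A fixed set was added: Pdgfra, Ptprc, the 4 rule genes, Cdk1, Hist1h2ap, Cxcl5, Cxcl14, Saa3, Il1r1, Il33, Il1rl1, Pi16, Dpp4, Acta2, Col1a1, Cdkn1a, Ccnd1, Myc, Axin2, Dlk1 and Gdf10. Other genes given with values, such as Mcm5, Pcna, Ccnb1, Cdc20, Cdkn1c, Il6, Cxcl1 and Crabp1, were chosen after their values were seen. Members, lists and rules were chosen with earlier results of these data known. The alternatives were other scalings, pseudocounts, filters, thresholds and depths, and those for day 7 folds and for groups from thinned barcodes were chosen after seeing the data.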

Additional observations from a re-analysis of the deposited data

How the results depend on the processing

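No paired analysis was possible because each group had 1 library. Of the counts and shares recomputed under the alternatives 72 stayed within 1.5 times or within their counting interval, and 19 moved. With a pseudocount of 1 CPM, in place of 5, the genes at least 2-fold higher and lower were 500 and 114 for dividing over non-dividing at day 2, 491 and 1026 for day 2 over day 7, and 609 and 681 for day 7. Genes lower at day 2 were 205 as a mean over barcodes and 59 in barcodes thinned to 5000 UMIs. With groups drawn from thinned barcodes 202 were higher and 9 lower. The dividing share was 59.3% at day 2 and 26.3% at day 7 from a sum of 3, 39.0% and 18.1% from a sum of 10, 56.2% and 27.2% with at least 3 UMIs of Pdgfra, and 42.6% and 19.6% after thinning. In non-lesional skin it was 0.346% with doublet marks removed. Of 2320 values of named genes past 2-fold, 2246 stayed past it under the alternatives, and 0 changed sign. Those that did not included Gdf10 and Sfrp4 at day 2, with log2 folds of -0.84 and -0.99 against non-dividing barcodes of at least 10000 UMIs. With groups drawn from thinned barcodes the log2 fold of Adm at day 2 was -0.81. Ribosome production had 6 of 29 genes higher at day 2 than at day 7 with TMM, in place of 1. Of the counts of list members 727 stayed within 1.5 times and 65 moved. The causes were not tested.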

Other observations

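At day 7, genes of the adipocyte lineage and some immediate early genes were lower in dividing than in non-dividing fibroblasts. Of 22 preadipocyte genes compared 10 were at least 2-fold lower in dividing barcodes of day 7 and 0 higher, against 1 lower at day 2. Dlk1, a membrane protein of preadipocytes, was at 6.31 CPM in dividing and 44.3 CPM in non-dividing barcodes of day 7. The lipid carrier Apoe was at 41.2 against 188 CPM, and the transcription factor Klf4 at 102 against 335 CPM. The secreted signal Bmp4 was at 3.06 against 50.9 CPM at day 7 and at 2.46 against 3.38 CPM at day 2. Immediate early genes, which tissue dissociation can raise, were lower as well in 7 of 23 members at day 7, among them Fos at 716 against 1547 CPM and Atf3 at 225 against 579 CPM, and in 0 of 23 at day 2. On both days 21 of the 23 lay below 0, with median log2 folds of -0.39 at day 2 and -0.54 at day 7, and with dividing barcodes taken from a sum of 3 the 7 became 4. Keratinocyte markers summed to 44.1 CPM in dividing and 241 CPM in non-dividing barcodes of day 7 and erythroid markers to 410 against 1454 CPM, and their part in these values was not tested. These genes were chosen after their values were seen, and the difference between the days was not tested.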
